A study of Homo sapiens with 12 samples.

Results

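The EGFR family ligands TGFA, HBEGF, AREG, EREG, BTC and NRG1 were followed in the human melanoma cell line A375, an established line with an activated BRAF kinase, by Illumina bead array. Members were all probes that the platform annotation gave to these 6 symbols. It gave 8 of the 38220 probes in the authors' normalized value table to 4 of the genes: 2 to TGFA, 1 to HBEGF, 1 to BTC and 4 to NRG1, out of 18810 symbols with a probe. AREG and EREG were not analysed here.

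These ligands are made as membrane-anchored precursors. Proteases of the ADAM family, chiefly ADAM17 with its iRhom partners, cut them at the cell surface, and the released EGF-like domain binds the ErbB receptors. TGFA binds EGFR, HBEGF and BTC bind EGFR and ERBB4, and the neuregulin NRG1 binds ERBB3 and ERBB4. Bound receptors activate RAS and ERK as well as PI3K, and several of the ligand genes are themselves induced by ERK signalling.

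The 12 arrays fell into 5 groups. They were vehicle control (DMSO, 2 arrays), ciclopirox for 8 h (3 arrays), ciclopirox for 24 h (2 arrays), crizotinib for 8 h (3 arrays) and crizotinib for 24 h (2 arrays). Ciclopirox is an antifungal agent that chelates iron, and crizotinib inhibits the receptor tyrosine kinases MET and ALK. Each drug was given at its 75% inhibitory concentration, determined at 72 h, and the labels give no concentration and no time for the controls. All groups were of the 1 line, and the replicates are not said to be separate cultures, so p-values measure the spread between arrays, which may be technical. The same 2 control arrays enter all 4 comparisons against control. With no time for the controls, drug and time in culture cannot be told apart in these comparisons or between 8 h and 24 h.

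The labelled cell type was set against its markers. SOX10, a transcription factor of the melanocyte lineage, was bright on every array (2211 to 3828 normalized intensity), and so was the receptor kinase AXL (5519 to 8193). The pigment cell genes MLANA, TYR, TYRP1 and S100B were above background on 0 of the 12 arrays, PMEL on 1 and the lineage regulator MITF on 9. None of the 4 keratinocyte markers with a probe was above background on any array.

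The deposited tables conflicted over which array is which. For 10 of the 12 arrays in the value table, the scanner column that its values followed most closely was not the column named in the sample's description. TGFA shows the conflict directly. On its brighter probe the value table gave 1232 and 1092 for the 2 ciclopirox 24 h arrays. The scanner columns described as those arrays read 1117 and 266, and the columns described as ciclopirox 8 h read 735, 903 and 1282. Results are given under the value table's own sample names. Under these the array most alike to each belonged to the same group in 12 of 12 cases, against 7 of 12 under the descriptions. This shows that the groups hold together and cannot show that each group carries the right drug and time. Under the descriptions' names no ligand probe was called in any comparison against control, and 13 of the 54 changes turned in sign with a call under one of the namings. Most results below therefore depend on the names of the value table. The descriptions place all arrays on 1 chip, each group in neighbouring positions, and the effects of position and of group cannot be told apart.

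**Figure D1:**
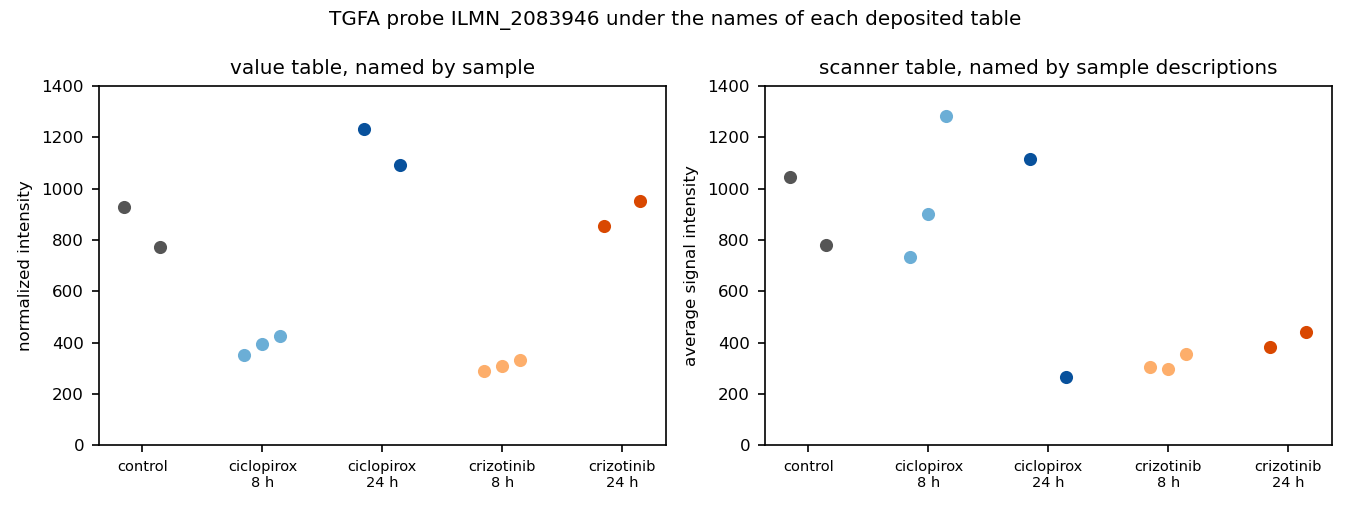
TGFA (probe ILMN_2083946) on each of the 12 arrays, as normalized intensity under the value table's names (left) and as scanner average signal under the names in the sample descriptions (right), one point per array on linear axes that start at 0. On the left the 3 ciclopirox 8 h arrays lie from 351 to 425 and on the right the columns so described lie from 735 to 1282.

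Of the 8 ligand probes, 6 were detected in at least 2 scanner columns (detection p under 0.01) and were tested, as were 16563 probes in all. Changes are log2 differences of group means from a limma fit over all 12 arrays, with the standard error after ±, and a call is a Benjamini-Hochberg adjusted p under 0.05 over all tested probes. Levels are the authors' normalized intensities, and a level counted as above background when it exceeded 40.3. Levels of different probes are not comparable with each other, since probes differ in brightness.

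TGFA, the classical autocrine ligand of EGFR, had the largest changes among the ligands tested in the comparisons of 8 h with control and of 24 h with 8 h. At 8 h of ciclopirox this held on its brighter probe alone (-1.13, with -0.86 on the other, against 1.04 on NRG1 probe ILMN_1737252). TGFA was lower than control at 8 h of both drugs and stood well above those levels at 24 h. No time is given for the controls, so drug and time in culture cannot be told apart in these changes. The TGFA promoter is shown here because the gene changed in the arrays of both drugs. RefSeq (GRCh38.p14) gives 2 start sites on the minus strand of chromosome 2, with windows from 250 bases before to 50 after the start, at chr2:70553777-70554076 (outer start) and chr2:70553397-70553696 (inner start). Capitals mark the GC box GGGCGG on either strand.
TGFA outer start: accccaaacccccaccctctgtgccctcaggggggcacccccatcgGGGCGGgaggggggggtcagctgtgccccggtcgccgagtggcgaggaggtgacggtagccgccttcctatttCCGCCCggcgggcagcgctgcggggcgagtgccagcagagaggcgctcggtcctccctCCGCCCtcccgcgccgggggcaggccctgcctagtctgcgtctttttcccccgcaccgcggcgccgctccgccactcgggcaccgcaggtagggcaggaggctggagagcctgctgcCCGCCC
TGFA inner start: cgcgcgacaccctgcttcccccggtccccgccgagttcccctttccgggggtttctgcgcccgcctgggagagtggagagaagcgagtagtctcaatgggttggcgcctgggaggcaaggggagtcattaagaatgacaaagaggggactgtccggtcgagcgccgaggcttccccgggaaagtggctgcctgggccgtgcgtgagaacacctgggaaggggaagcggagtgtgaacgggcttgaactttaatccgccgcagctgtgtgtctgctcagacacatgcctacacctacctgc
The outer window held 4 GC boxes and 75.3% G and C, and the inner window held 0 and 63.0%, where the median of 35116 RefSeq windows was 58.7%. GGGCGG occurred in 45.0% of all windows. Neither window held the letters of an AP-1 site (TGANTCA, in 7.71% of all windows), a CRE (TGACGTCA, 1.85%), a TEAD site (GGAATG, 14.0%) or a TATA box (TATAAA, 11.5%), searched on both strands. An absent match says only that these letters are not in the window.

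The brighter TGFA probe (ILMN_2083946) read 929.9 and 773 on the control arrays. It read 351, 393 and 425 after 8 h of ciclopirox and 288, 307 and 332 after 8 h of crizotinib. At 24 h it read 1232 and 1092 with ciclopirox and 856 and 951 with crizotinib. All 6 arrays of 8 h were below both controls, and the crizotinib 24 h arrays overlapped the controls.

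The second TGFA probe (ILMN_1805175) read 594 and 617 in controls. At 8 h it read 366, 313 and 321 with ciclopirox and 292, 268 and 289 with crizotinib, and at 24 h 1018 and 1205 with ciclopirox and 852 and 838 with crizotinib. None of its 5 groups overlapped a neighbour in the order crizotinib 8 h, ciclopirox 8 h, control, crizotinib 24 h and ciclopirox 24 h. The probes followed each other over the 12 arrays (Pearson r = 0.96, which includes the group differences that both share).

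After 8 h of ciclopirox, TGFA fell on the first probe by 1.13 on the log2 scale (SE 0.12, 3 arrays against 2, adjusted p = 0.00113 by limma) and by 0.86 ± 0.10 (adjusted p = 0.00191) on the second. After 8 h of crizotinib it fell by 1.46 ± 0.12 (adjusted p = 0.000292) and by 1.10 ± 0.10 (adjusted p = 0.000678), to 0.36 and 0.47 of the control level. All 4 calls were kept whichever array of the compared groups was left out. In bulk RNA, fewer cells that express a gene and less of its RNA per cell cannot be told apart. The summed level of the melanocyte lineage markers moved the same way, from 4263 to 4502 in controls to 2926 to 3036 at 8 h of ciclopirox and 2877 to 3247 at 8 h of crizotinib. SOX10 and EDNRB carried that sum, and 4 of its 8 probes were above background on no array. The sum of 5 neural crest or dedifferentiated melanoma markers was 6356 to 7333 in controls, 8280 to 8886 at 8 h of ciclopirox and 7322 to 8140 at 8 h of crizotinib. AXL carried most of that sum (5519 to 8193 over all arrays), followed by JUN (387 to 1051). NGFR was above background on 0 arrays and SOX9 on 5. The part of these markers in the result was not tested.

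Between 8 h and 24 h, a comparison that uses no control array, TGFA rose about as much with either drug. With ciclopirox it rose by 1.58 ± 0.12 (adjusted p = 8.46e-05) and 1.74 ± 0.10 (adjusted p = 1.93e-05), a ratio of 2.99 and 3.33. With crizotinib it rose by 1.55 ± 0.12 (adjusted p = 1.58e-05) and 1.58 ± 0.10 (adjusted p = 5.74e-06). The difference between the drugs in this rise was -0.03 (95% interval -0.42 to 0.35) on the first probe and -0.16 (-0.48 to 0.17) on the second. Neither passed the test, and the intervals bound a difference rather than exclude one.

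Against control, the level at 24 h depended on the probe. With ciclopirox the second probe was higher by 0.87 ± 0.11 (adjusted p = 0.00215), while the first changed by 0.45 ± 0.13 (adjusted p = 0.0682). With crizotinib the second probe was higher by 0.48 ± 0.11 (adjusted p = 0.0109) and the first changed by 0.09 ± 0.13 (adjusted p = 0.674). The crizotinib call was lost without control replicate 1 (0.45, adjusted p = 0.0633) or without crizotinib 24 h replicate 1 (0.47, adjusted p = 0.0597), and without the detection filter (adjusted p = 0.0551). The ciclopirox call held without each array but was lost in a fit of the 4 compared arrays alone (adjusted p = 0.0677).

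**Figure D2:**
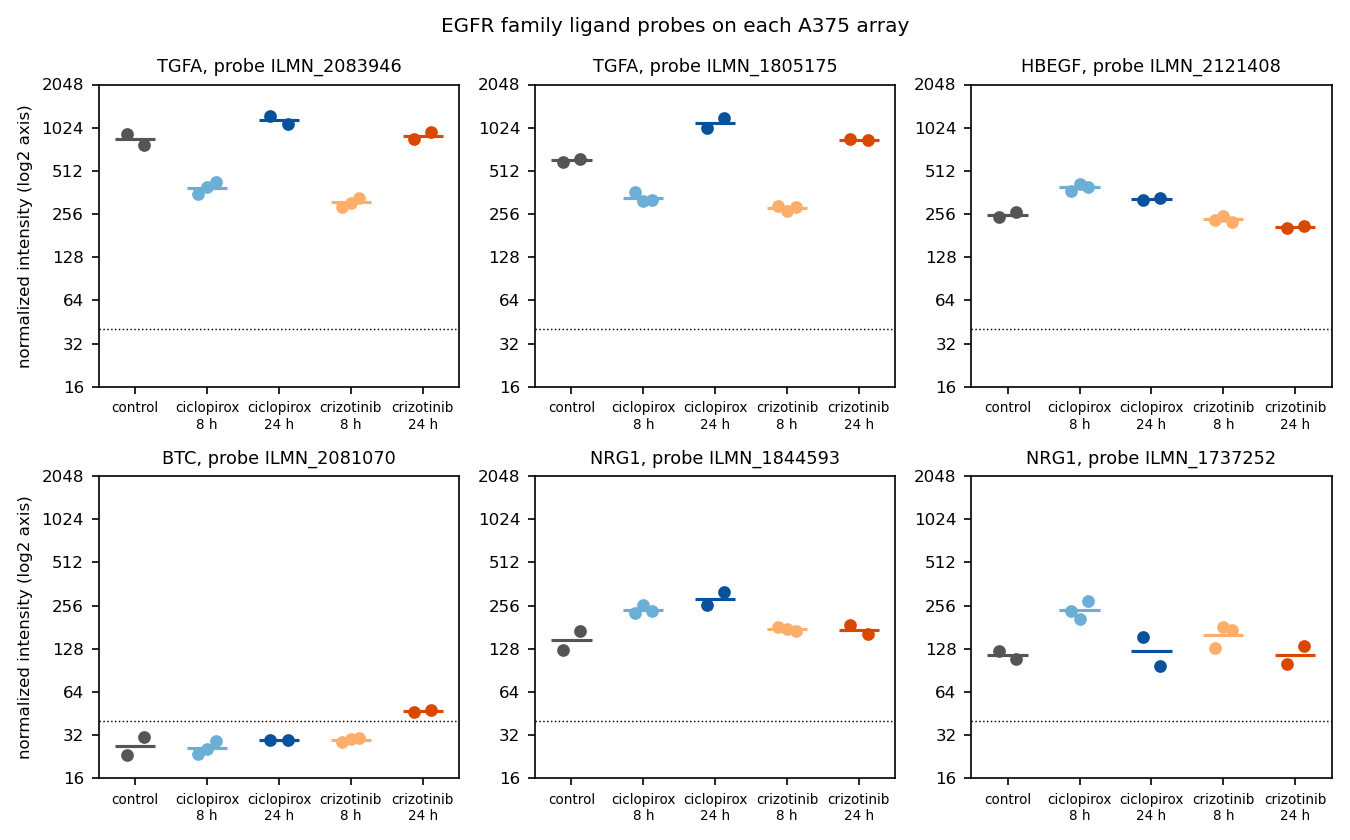
Normalized intensity (log2 axis) of the 6 tested ligand probes on each of the 12 arrays, one point per array, with a bar at each group's geometric mean and a dotted line at the background level of 40.3. TGFA is low in all 6 arrays of 8 h on both probes, HBEGF is highest with ciclopirox at 8 h (373 to 412), and BTC is above the line in the 2 crizotinib 24 h arrays alone.

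HBEGF, a heparin-binding ligand of EGFR, moved with the drug rather than as TGFA did. Its RefSeq window (GRCh38.p14, minus strand, chr5:140346554-140346853) is shown for comparison with TGFA, with GC boxes in capitals.
HBEGF: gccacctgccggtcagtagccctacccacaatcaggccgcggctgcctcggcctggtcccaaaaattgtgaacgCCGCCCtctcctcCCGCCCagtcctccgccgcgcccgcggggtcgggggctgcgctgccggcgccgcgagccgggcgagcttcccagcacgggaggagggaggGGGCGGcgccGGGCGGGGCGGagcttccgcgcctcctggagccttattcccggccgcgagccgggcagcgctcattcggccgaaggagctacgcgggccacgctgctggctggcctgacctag
It held 5 GC boxes, of which a neighbouring pair overlaps by a base, and 75.0% G and C. As in the TGFA windows, none of the other motifs searched was present.

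HBEGF read 245 and 263 in controls, and 373, 412 and 393 after 8 h of ciclopirox. After 24 h of ciclopirox it read 321 and 333. With crizotinib it read 234, 249 and 227 at 8 h and 205 and 211 at 24 h. Every ciclopirox array was above both controls, the crizotinib 8 h arrays overlapped the controls, and the crizotinib 24 h arrays lay below all others.

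With ciclopirox at 8 h HBEGF rose by 0.63 ± 0.09 (n = 3 against 2, limma adjusted p = 0.00361), a ratio of 1.55, and kept that call whichever array was left out. With crizotinib at 8 h its change was -0.10 (95% interval -0.29 to 0.09, adjusted p = 0.503). Set directly against each other, crizotinib stood below ciclopirox at 8 h (-0.73 ± 0.08, adjusted p = 0.000651) and at 24 h (-0.65 ± 0.09, adjusted p = 0.00105). Both drug differences held without each array in turn.

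The 24 h levels of HBEGF against control were called higher with ciclopirox (0.37 ± 0.09, adjusted p = 0.0444) and lower with crizotinib (-0.29 ± 0.09, adjusted p = 0.0462). Leaving out any 1 of the 4 arrays compared ended either call, with adjusted p up to 0.198 and 0.202. From 8 h to 24 h it changed by -0.26 ± 0.09 with ciclopirox (adjusted p = 0.0631) and by -0.19 ± 0.09 with crizotinib (adjusted p = 0.126), neither of which passed.

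NRG1, a neuregulin that signals through ERBB3, was measured by 2 tested probes that behaved differently. The probe ILMN_1844593 read 126 and 169 in controls, 228, 257 and 235 at 8 h of ciclopirox, and 257 and 316 at 24 h of ciclopirox. With crizotinib it read 182, 177 and 171 at 8 h and 187 and 161 at 24 h. Every ciclopirox array was above every other array, while control and crizotinib arrays overlapped.

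The probe ILMN_1737252, annotated to another NRG1 transcript, read 123 and 108 in controls and 236, 206 and 276 at 8 h of ciclopirox. It read 155 and 96.9 at 24 h of ciclopirox, 130.4, 183 and 172 at 8 h of crizotinib, and 100.01 and 134 at 24 h of crizotinib. The ciclopirox 8 h arrays stood above all others, and the 24 h arrays of both drugs overlapped the controls. Over the 12 arrays the NRG1 probes had r = 0.22 with each other.

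Ciclopirox at 8 h left NRG1 higher by 0.71 ± 0.14 on ILMN_1844593 (n = 3 against 2, limma adjusted p = 0.0158) and by 1.04 ± 0.22 on ILMN_1737252 (adjusted p = 0.0217). The first call was lost without control replicate 1 (0.50, adjusted p = 0.126) or ciclopirox 8 h replicate 2 (0.66, adjusted p = 0.0503). The second was lost without either control or without ciclopirox 8 h replicate 1 or 3 (adjusted p from 0.056 to 0.12), and both were lost without the detection filter (adjusted p = 0.0587 and 0.0655).

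By 24 h of ciclopirox the probes had parted. ILMN_1844593 was higher than control by 0.96 ± 0.15 (adjusted p = 0.00543), a ratio of 1.95, and kept the call without each array in turn, but not in a fit of the 4 compared arrays alone (adjusted p = 0.0922). ILMN_1737252 stood at 0.08 ± 0.24 (adjusted p = 0.875) and had fallen from its 8 h level (-0.96 ± 0.22, adjusted p = 0.0175), a call lost without ciclopirox 8 h replicate 3 (-0.85, adjusted p = 0.0558) or ciclopirox 24 h replicate 2 (-0.62, adjusted p = 0.14). Crizotinib changed neither probe past the threshold against control, with changes of 0.27 and 0.47 at 8 h (adjusted p = 0.252 and 0.223) and 0.25 and 0.00 at 24 h (adjusted p = 0.273 and 0.994).

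The remaining NRG1 probes, ILMN_1811954 and ILMN_1731788, were detected in 1 and 0 scanner columns and were not tested. They read 22.2 to 36.8 and 21.6 to 29.9 over the 12 arrays, with no value above background.

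BTC, betacellulin, was at background in all groups but one. It read 23.4 and 30.9 in controls, 23.7, 25.6 and 29.1 at 8 h of ciclopirox and 29.8 on both arrays at 24 h of ciclopirox. It read 28.6, 30.0035 and 30.7 at 8 h of crizotinib, and 46.4 and 47.6 at 24 h of crizotinib. The groups below it overlapped their neighbours in level, and the crizotinib 24 h arrays were just above the background level.

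Since no other group was above background, the BTC change at 24 h of crizotinib is a bound. It was at least 1.17-fold higher than control (limma adjusted p = 0.00207, n = 2 against 2) or ciclopirox at 24 h, and at least 1.16-fold higher than crizotinib at 8 h. The bound sets the mean of the brighter group (47.0, against a measured 27.2 in controls) against the lowest level above background. This probe was detected in 2 scanner columns, so it entered the test through its highest values. That route favours a difference, so its calls support nothing. Summed markers of fibroblasts and leukocytes were also higher at 24 h of crizotinib. The 7 fibroblast markers summed to 290.6 to 315.8 against 231.5 to 245.8 in controls, with 3 of the 7 above background on any array and COL1A2, COL3A1, DCN and PDGFRA on none. The 4 leukocyte markers with a probe summed to 123.7 to 137.2 against 100.4 to 106.6, with CD14 alone above background and PTPRC, CD3E and LYZ on none. The keratinocyte sum was 82.2 to 82.5 against 81.9 to 83.8, and the endothelial sum 62.8 to 64.3 against 56.2 to 61.7. Their part in the BTC result was not tested.

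The calls were then counted over the 6 tested probes, which are those that passed the detection filter and not every ligand probe. At 8 h of ciclopirox 5 of 6 were called, 3 higher and 2 lower, where 7.84% of all tested probes were called (3.51% higher and 4.33% lower). At 24 h of ciclopirox 3 of 6 were called, all higher, against 7.03% of all probes (3.95% higher and 3.09% lower). At 8 h of crizotinib 2 of 6 were called, both of TGFA and lower, against 7.05% (3.58% higher and 3.47% lower). At 24 h of crizotinib 3 of 6 were called, 2 higher and 1 lower and 1 of the higher calls that of BTC, against 25.8% (13% higher and 12.9% lower). TGFA and NRG1 each supplied a pair of these probes, and probes of a gene are not independent. The first count fell to 3 without control replicate 1, and the last to 1 without control replicate 1 or crizotinib 24 h replicate 1. The count for ciclopirox at 24 h fell to 2 without any 1 of its arrays.

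**Figure D3:**
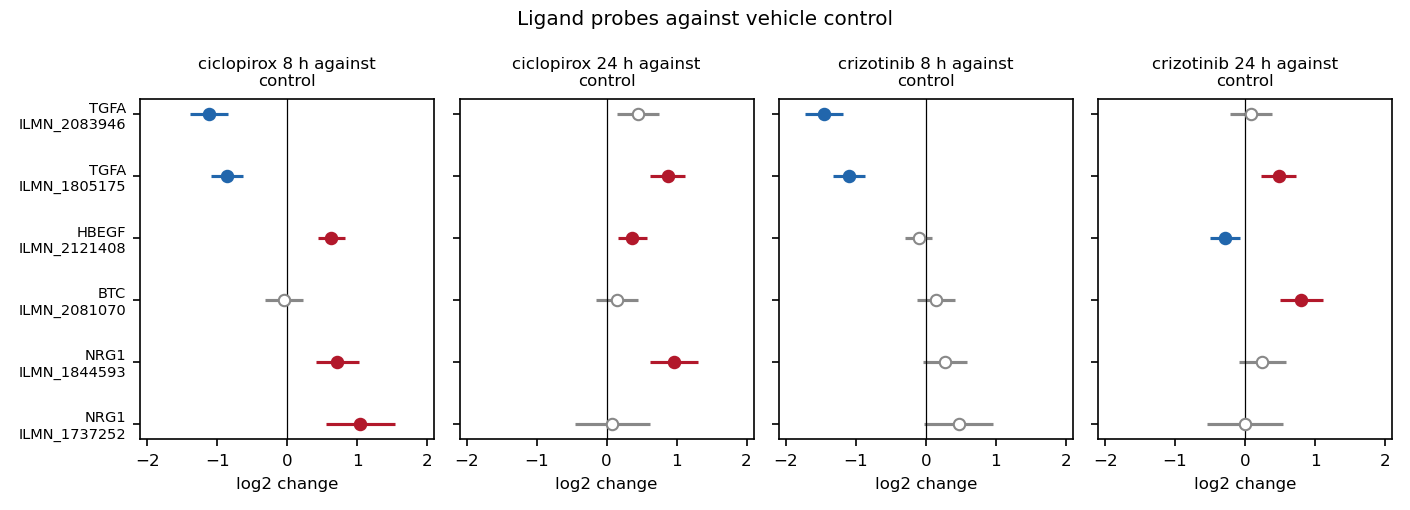
Log2 change of the 6 tested ligand probes against vehicle control in each of the 4 drug groups, as a point with its 95% interval from limma (filled red, called higher; filled blue, called lower; open grey, not called). Both TGFA probes lie left of 0 at 8 h of either drug, and HBEGF and NRG1 lie right of 0 at 8 h of ciclopirox, while BTC is plotted against groups that are not above background.

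Between times, 3 of 6 probes were called with ciclopirox (2 higher and 1 lower at 24 h, against 15.7% of all probes, 8.91% higher and 6.84% lower) and 3 of 6 with crizotinib (all higher, against 33.3%, with 17.4% higher and 15.9% lower). The crizotinib calls were those of both TGFA probes and of BTC, whose call the detection filter favoured. Between drugs, 1 of 6 was called at 8 h, HBEGF, which was lower with crizotinib, against 7.11% of all probes (3.51% higher and 3.6% lower). At 24 h 4 of 6 were called, 3 lower and 1 higher with crizotinib, against 19.9% (9.89% higher and 10% lower), and 2 without ciclopirox 24 h replicate 2 or crizotinib 24 h replicate 2.

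Besides HBEGF, the drugs differed at 24 h in NRG1 on ILMN_1844593 (-0.72 ± 0.15, adjusted p = 0.00866) and in TGFA on ILMN_1805175 (-0.39 ± 0.11, adjusted p = 0.0345). The call counted as higher was that of BTC, which the detection filter favoured. The NRG1 call was lost without ciclopirox 24 h replicate 2 (-0.57, adjusted p = 0.0712) or crizotinib 24 h replicate 2 (-0.61, adjusted p = 0.0601). The TGFA call was lost without ciclopirox 24 h replicate 2 (-0.27, adjusted p = 0.209) or either crizotinib 24 h array (adjusted p = 0.119 for both). At 8 h TGFA was lower with crizotinib than with ciclopirox on every array, by differences of -0.33 (95% interval -0.57 to -0.09, adjusted p = 0.0987) and -0.23 (-0.44 to -0.03, adjusted p = 0.162) that did not pass. For 0 of the 6 probes did limma call a drug difference in the time change, where 8.2% of all probes were called (3.88% higher and 4.32% lower). At an unadjusted p under 0.05 there was 1, BTC, whose difference has no readable size because 3 of its groups were not above background.

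**Figure D4:**
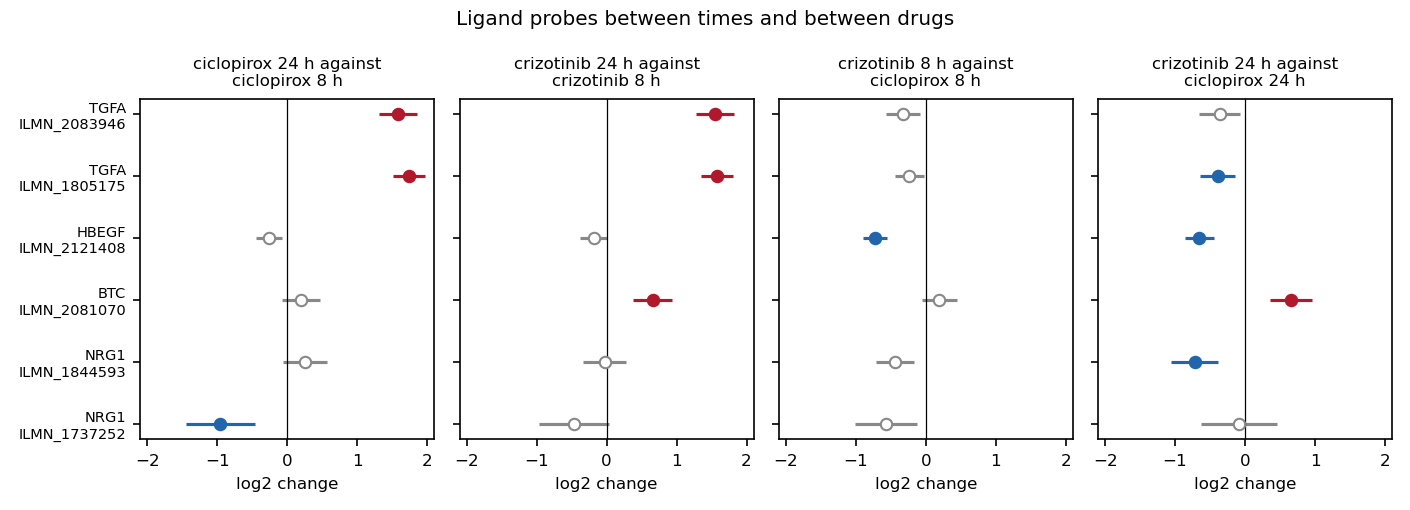
Log2 change of the 6 tested ligand probes from 8 h to 24 h of each drug (left pair) and of crizotinib against ciclopirox at each time (right pair), with 95% intervals from limma (filled red, called higher; filled blue, called lower; open grey, not called). TGFA lies between 1.55 and 1.74 in both time comparisons, and HBEGF lies at -0.73 and -0.65 in the drug comparisons, while BTC is plotted against groups that are not above background.

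The receptors of these ligands were also measured. EGFR, the receptor of TGFA, HBEGF and BTC, was dim, at 47.7 to 93.7 on its brighter probe. On that probe it rose at 8 h of ciclopirox (0.61 ± 0.09, limma adjusted p = 0.0054), at 24 h of ciclopirox (0.91, adjusted p = 0.000774) and at 8 h of crizotinib (0.79, adjusted p = 0.00185). Its other tested probe stood at -0.39, 0.12 and -0.15 in these comparisons, so the EGFR direction rests on 1 probe. The first of these calls was lost without control replicate 1 (adjusted p = 0.0561). ERBB3, the receptor of NRG1, fell at 8 h of ciclopirox (-1.13 ± 0.11, adjusted p = 0.000771), with -0.66 and -0.54 on its other probes. At 24 h of ciclopirox ERBB3 stood at -0.33 (adjusted p = 0.122), with -0.65 and -0.58 on its other probes. From 8 h to 24 h of ciclopirox it rose by 0.80 on its brightest probe, against -0.11 and 0.08 on the others. With crizotinib the brightest probe stood at -0.27 at 8 h and 0.21 at 24 h (adjusted p = 0.155 and 0.24). The others stood at -0.002 and 0.14 at 8 h and -0.48 and 0.11 at 24 h of crizotinib. ERBB2, the partner receptor without a ligand of its own, was lower at 8 h of ciclopirox (-0.39, adjusted p = 0.0312), a call lost on leaving out any 1 of the 5 arrays. ERBB4 was not above background on any array, and neither were the other family ligands EGF, NRG2, NRG3 and NRG4. EPGN was not analysed here.

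Genes of ligand shedding were called in each comparison against control but that of ciclopirox at 24 h. Of 11 tested, 0 were higher and 2 lower at 8 h of ciclopirox (7.84% of all probes called, list median 0.07 where all tested probes had -0.002). Likewise 0 were higher and 2 lower at 8 h of crizotinib (7.05% of all), and 2 were higher and 1 lower at 24 h of crizotinib (25.8% of all). Both 8 h counts fell to 0 without control replicate 1 and to 1 without other single arrays, and the last fell to 1 without control replicate 1 or crizotinib 24 h replicate 2. The main ligand sheddase ADAM17 stood between -0.20 and 0.10 on its brighter probe in the 4 comparisons against control and was called in none, while its other probe stood at 0.34, 0.37, 0.22 and 0.35. ADAM10 stood between -0.16 and 0.07 and was called in none. The iRhom RHBDF1, which carries ADAM17 to the surface, was higher at 24 h of crizotinib (0.78 ± 0.13, adjusted p = 0.00223). It was lower at 8 h of ciclopirox (-0.66, adjusted p = 0.0123), a call lost without either control array (adjusted p up to 0.0797). The other iRhom, RHBDF2, stood at -0.54 at 8 h of crizotinib and 0.53 at 24 h, and both calls were lost on leaving out single arrays (adjusted p up to 0.178 and 0.113). The other RHBDF2 probes stood at -0.08 and -0.02 at 8 h and at 0.05 and 0.86 at 24 h of crizotinib. ADAM19, another metalloprotease, was lower at 8 h with either drug (-0.60 and -0.77) and at 24 h of crizotinib (-0.58), and each of these calls was lost without control replicate 1 (adjusted p up to 0.169).

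Of 11 tested inhibitors close to the receptor, 1 was higher and 1 lower at 8 h of ciclopirox (7.84% of all probes called) and 2 higher and 0 lower at 24 h (7.03% of all). With crizotinib 0 were higher and 1 lower at 8 h (7.05% of all), and 2 higher and 3 lower at 24 h (25.8% of all). The ciclopirox 8 h count fell to 0 without either control or ciclopirox 8 h replicate 2 or 3, and the crizotinib 8 h count fell to 0 without any 1 of its arrays. The ciclopirox 24 h count fell to 1 without control replicate 2 or ciclopirox 24 h replicate 2, and the crizotinib 24 h count of 5 fell to 2 or 3 without any 1 of its arrays. ERRFI1, which binds and inhibits the EGFR kinase and is induced by its signalling, rose at 24 h of ciclopirox (0.78 ± 0.10, adjusted p = 0.00156). It fell at 24 h of crizotinib (-0.59 ± 0.10, adjusted p = 0.0015), and the direct difference between the drugs was -1.37 (adjusted p = 1.16e-05). At 8 h of crizotinib it was at -0.38, a call lost without any 1 of the 5 arrays. The ubiquitin ligase CBLB, which marks the receptor for degradation, was higher at 24 h of crizotinib (0.84, adjusted p = 0.00175). RNF41, a ubiquitin ligase of ERBB3, was higher at 24 h of ciclopirox (0.62, adjusted p = 0.00905), a call lost without control replicate 2 or ciclopirox 24 h replicate 2 (adjusted p up to 0.0625). Among 6 tested adaptors the phosphatase PTPN11 alone was called against control, at 24 h of crizotinib (-0.40, adjusted p = 0.0106). There 25.8% of all probes were called and 12.9% were lower. The PTPN11 call was lost without control replicate 1 or crizotinib 24 h replicate 1.

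ERK feedback and output genes, 17 of them tested, moved in both directions at 8 h, with 4 higher and 3 lower for ciclopirox (median -0.22, 3.51% and 4.33% of all probes) and 2 higher and 4 lower for crizotinib (median -0.11, 3.58% and 3.47% of all). At 24 h 7 were higher and 0 lower with ciclopirox (median 0.27, 3.95% of all higher) and 4 higher and 0 lower with crizotinib (median 0.03, 13% of all higher). The lower count fell to 1 without control replicate 1 for ciclopirox at 8 h, and for crizotinib at 8 h to 1 without either control and 2 without crizotinib 8 h replicate 1 or 2. The higher count at 24 h of ciclopirox fell to 5 or 6 without any 1 of the arrays compared, and that at 24 h of crizotinib fell to 2 without control replicate 2. The ERK phosphatase DUSP5 rose in all 4 groups, by 0.93 and 1.14 with ciclopirox and 0.72 and 0.94 with crizotinib. SPRY1 was higher by 1.52 at 8 h of ciclopirox (0.97 on its other probe) and by 1.09 at 24 h of crizotinib (0.30 on its other probe). MYC was higher at 8 h of ciclopirox (0.89, with 0.90 on its other probe) and of crizotinib (0.75, with 0.45 on the other). IER3, an early response gene, fell at 8 h of both ciclopirox (-0.75 ± 0.10, adjusted p = 0.00293) and crizotinib (-0.75 ± 0.10, adjusted p = 0.00367), and EGR1 rose at 24 h of ciclopirox (1.83 ± 0.12, adjusted p = 9.56e-05).

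AP-1 subunits, 7 of them tested, were higher in 3 at 8 h and in 5 at 24 h of ciclopirox with none lower, where 3.51% and 3.95% of all probes were higher. The 8 h calls (ATF3, JUN and FOSL1) were all lost without either control or without ciclopirox 8 h replicate 2, and 1 was left without ciclopirox 8 h replicate 3 (adjusted p up to 0.131, 0.22 and 0.162). The 24 h count fell to 3 without either control or ciclopirox 24 h replicate 2. ATF3 (2.18 ± 0.16, adjusted p = 0.000104), FOS (1.48) and FOSB (0.90) led at 24 h. With crizotinib none was called at 8 h (median -0.03), and at 24 h 3 were higher and JUN was lower (-0.74 ± 0.14, adjusted p = 0.00374), where 25.8% of all probes were called. ATF3 (1.35) and FOSB (0.90) were among those higher at 24 h of crizotinib. Output genes of YAP and TEAD, 13 of them tested, were higher in 6 at 8 h of ciclopirox with none lower (median 0.31), where 3.51% of all probes were higher. That count fell to 2 without control replicate 1 and to 4 without control replicate 2. They included the matricellular genes CCN2 (0.86 ± 0.10) and CCN1 (0.71 ± 0.08). Against control, 1 of the 13 was higher and 1 lower at 8 h of crizotinib (median 0.09, 3.58% and 3.47% of all probes). At 24 h of crizotinib 0 were higher and 2 lower (median 0.02, 13% and 12.9% of all). CCN2 was lower with crizotinib, by 0.76 on the log2 scale at 8 h and by 1.60 at 24 h (limma adjusted p = 0.00339 and 9.85e-06). AJUBA was higher at 8 h of crizotinib (0.46), a call lost without either control array. The other lower call at 24 h, TEAD1 (-1.15), was lost without control replicate 1. At 8 h, 5 of the 13 were lower with crizotinib than with ciclopirox and 0 higher, where 3.6% of all probes were lower.

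**Figure D5:**
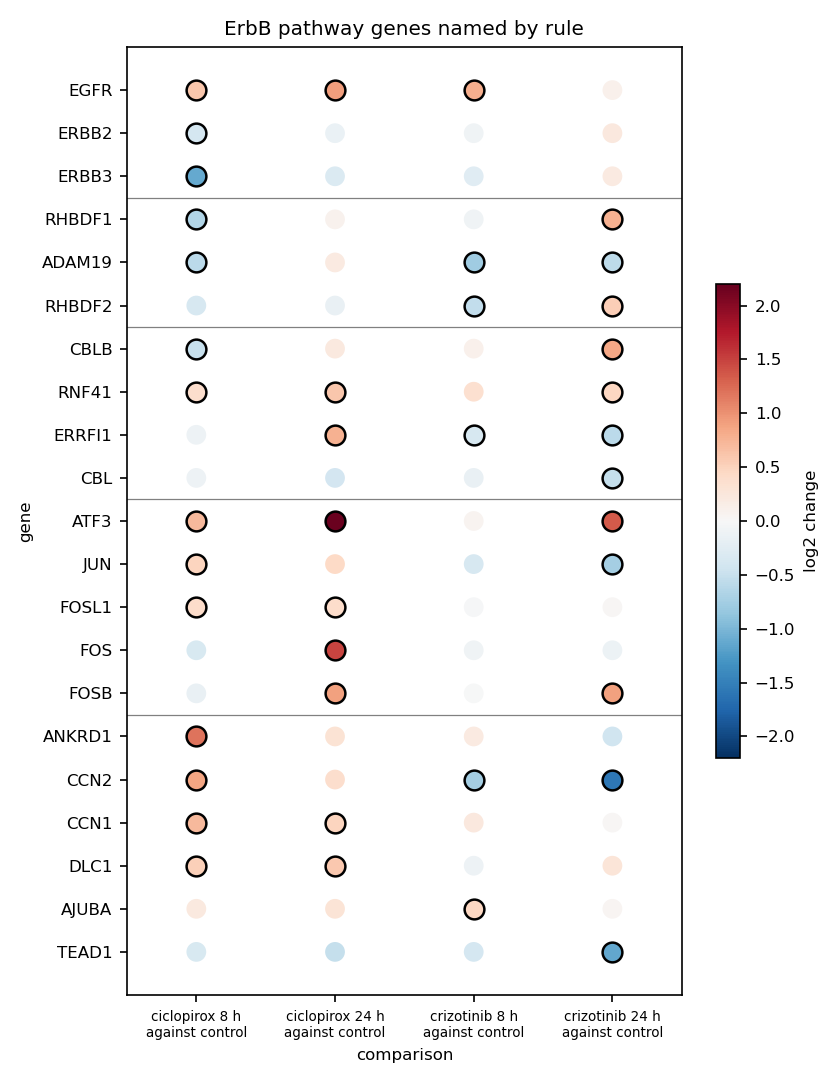
Log2 change (colour) against control of the ErbB pathway genes named, in rows grouped as receptors, shedding genes, receptor inhibitors, AP-1 subunits and YAP output genes, with a black ring where limma called the change. ERBB3 has its own lowest value at 8 h of ciclopirox (-1.13) and ATF3 its own highest at 24 h of ciclopirox (2.18), while CCN2 stands at -1.60 at 24 h of crizotinib.

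Genes with the most similar pattern were listed over the 12 arrays, from 1 probe per gene, by Pearson correlation with the brightest probe of TGFA, HBEGF and NRG1. The points share the 5 groups, so these values describe the group pattern. TGFA was closest to CD59, an inhibitor of complement (r = 0.98), LTBP3, a binding protein of latent TGF-beta (0.97), and the ERK-induced gene PHLDA1 (0.97). CD59 stood at means of 718 in controls, 529.5 and 803 with ciclopirox at 8 h and 24 h, and 527 and 741 with crizotinib. HBEGF was closest to MARS2, a mitochondrial tRNA synthetase (0.98), the hexokinase HK2 (0.97) and the adaptor SHB (0.96). HK2 had means of 555 in controls, 1507 and 907 with ciclopirox, and 644 and 457 with crizotinib. NRG1 was closest to CSNK2A1, a subunit of casein kinase (0.946), the receptor kinase EPHA2 (0.938) and DDIT4, an inhibitor of mTORC1 (0.914). BTC, not above background on 10 of the 12 arrays, is left out of this description.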

How the data were processed

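Per the labels, 300 ng of RNA from each of the 12 samples was labelled and hybridised to Illumina bead arrays. The authors deposited scanner output for 47231 probes, holding signal intensity with a detection p-value beside it, per the file headers. GenomeStudio is named in the submitters' processing notes, without a version. These signals were already background-subtracted (28.8% below 0). The value table had been planned for as log2 values, but the authors deposited it as normalized intensity for 38220 probes on a linear scale, with column medians from 28.3 to 29.6. How it was normalized is not stated in those sources, and a change in total RNA cannot be seen in it.

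Of its probes, 27002 had 1 gene symbol, 4 several and 11214 were unnamed here. Probes with a detection p under 0.01 in at least 2 of the 12 scanner columns were fitted as log2 intensity with limma 3.58.1 in R 4.3.3, as group means over all 12 arrays (7 residual degrees of freedom), two-sided, in 9 comparisons, with Benjamini-Hochberg adjustment. The precision is limited by the 2 or 3 arrays per group. Background was the 99th percentile of 20196 probes detected in no column. A gene in a list was represented by its tested probe with the highest mean. The fit was tested on simulated data. Members, lists and tests were chosen with earlier results of these data known. From each list, up to 3 called genes with the largest change in each comparison against control were eligible to be named, lists of up to 4 tested genes in full, and for each ligand the 3 genes with the highest correlation (not given for BTC, which was at background on most arrays). ADAM17 and ADAM10 were named after their values had been seen. Alternatives were scanner signals (neqc, offset 16) named by the descriptions, another scale, centring, filters, sample sets, moderation and a replicate block.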

Additional observations from a re-analysis of the deposited data

Results flagged for a closer look

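Changes that differed between times or between drugs, by the test of the difference itself, are gathered here as log2 values. From 8 h to 24 h, TGFA differed by 1.58 and 1.74 with ciclopirox (probes ILMN_2083946 and ILMN_1805175) and by 1.55 and 1.58 with crizotinib. The time comparison also differed for NRG1 on probe ILMN_1737252 with ciclopirox (-0.96). Between crizotinib and ciclopirox, HBEGF differed by -0.73 at 8 h and -0.65 at 24 h. At 24 h the drugs differed in TGFA on probe ILMN_1805175 (-0.39) and in NRG1 on probe ILMN_1844593 (-0.72). The fit also gave BTC 0.66 for crizotinib between times and 0.66 between drugs at 24 h. That probe entered the test through its highest values, which favoured these differences, so they support nothing. With the lower group not above background they are bounds of at least 1.16-fold and 1.17-fold. No group held 4 arrays, so single arrays were not tested as outliers.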

How the results depend on the processing

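Scanner signals under the descriptions' names turned 13 changes in sign with a call under one of the namings, and the cause was not tested. They gave TGFA probe ILMN_1805175 log2 changes of 0.52, -0.064 and -0.89 against control (ciclopirox 8 h, ciclopirox 24 h, crizotinib 24 h) and -0.58 from 8 h to 24 h of ciclopirox, and TGFA probe ILMN_2083946 0.26 at 8 h of ciclopirox and -0.81 from 8 h to 24 h. HBEGF stood at -0.052 at 8 h of ciclopirox and 0.66 at 24 h of crizotinib, and at 0.17 and 0.52 for crizotinib against ciclopirox at 8 h and 24 h. For crizotinib against ciclopirox NRG1 stood at 0.56 (ILMN_1737252, 8 h) and 0.058 (ILMN_1844593, 24 h), and BTC at -0.66 at 8 h. These names left 0 ligand probes called in the 4 comparisons against control, both time comparisons and the drug comparison at 24 h, and 4 in the drug comparison at 8 h.

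Under the value table's names no change turned in sign with a call in the main or the alternative fit, and turns without a call were not counted. The drug comparison at 8 h called 2 with log2(value + 16), with detection in at least 6 columns and with the compared groups alone, and 4 with trended robust moderation, against 1. Without the detection filter 3 were called at 8 h of ciclopirox and 1 at 24 h of crizotinib, and the compared groups alone gave 0 at 24 h of ciclopirox. Leaving out each array gave 3 to 4 calls at 8 h and 2 to 2 at 24 h of ciclopirox, 2 to 2 at 8 h and 1 to 2 at 24 h of crizotinib, 2 to 3 and 3 to 3 between times (ciclopirox, crizotinib), 1 to 1 and 2 to 4 between drugs (8 h, 24 h), and 0 to 0 for the difference in change.

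Same-numbered arrays did not deviate together (r from -0.092 to 0.081 over 21 pairs). In groups of 2 arrays the deviations mirror each other, so the pairs are not independent. The labels do not say what a number shares, and these values cannot say whether it is a culture or a day. With the number as a replicate block 5 calls passed the threshold no longer: NRG1 probe ILMN_1737252 at 8 h of ciclopirox (0.96, adjusted p = 0.0586) and from 8 h to 24 h (-0.88, adjusted p = 0.0533), HBEGF at 24 h of ciclopirox (adjusted p = 0.0641) and crizotinib (adjusted p = 0.0576), and TGFA probe ILMN_1805175 between drugs at 24 h (adjusted p = 0.0674). The block moved no count by over 1.5 times. Signal near background limits BTC, and 2 or 3 arrays per group limit every comparison.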
